A study of Mus musculus with 4 samples.

Results

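The expression of 9 genes that mark the formative or primed epiblast, Otx2, Foxd3, Zic2, Pou3f1, Grhl2, Utf1, Fgf5, Fgf15 and Cdh2, was examined in mouse embryonic stem cells (ESCs) after silencing of Cnot1. The genes were taken by name, and all 9 are listed among the 50559 genes of the count table. RNA-seq had been performed on E14 ESCs, a mouse ESC line, transfected either with siRNA against Cnot1 (siCnot1) or with a non-targeting siRNA (siNT). Each group had 2 libraries, described as independent biological replicates. Both groups were grown on gelatin with serum replacement and leukemia inhibitory factor (LIF), received siRNA at 150 nM and were harvested at 48 h. The methods list 2 siRNAs against Cnot1 without stating which was used here, so an effect of the particular siRNA and of the loss of Cnot1 cannot be told apart. The methods also describe ESCs with a tdTomato transgene driven by the MERVL promoter, and whether these libraries came from that line is not given in the sources used here.

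CCR4-NOT, the deadenylase complex assembled on CNOT1, shortens the poly(A) tails of mRNAs. Naive ESCs resemble the epiblast of the blastocyst. As they leave this state they pass through a formative phase, in which OTX2, POU3F1, ZIC2, FOXD3 and GRHL2 are known to reorganise enhancer use, and they then reach a primed state like the epiblast after implantation. Fgf5 is the classical marker of that later epiblast, and a shift from E-cadherin (Cdh1) towards N-cadherin (Cdh2) accompanies the exit from it.

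Libraries held between 32135824 and 32557440 counts on genes, with similar depth in both groups, and 3 counts, taken as the floor of detection, correspond to 0.0921 to 0.0934 CPM (counts per 1000000 counts on genes). Floors and counting intervals cover counting error only. Cnot1 itself (chromosome 8, 96445559 to 96534741) had 28397 and 30903 counts in siNT and 6188 and 6425 counts in siCnot1, leaving 19.8% of the control level. Of the 9 genes, 8 had enough counts to be tested in edgeR's quasi-likelihood test, in which p-values were adjusted by the Benjamini-Hochberg method over 18144 genes and a gene was called at an adjusted p under 0.05. Each of these 8 genes had at least 54 counts in every library, so none passed the filter on low counts through 1 group alone. The exception was Fgf5. Log2 fold changes are siCnot1 over siNT, and levels are CPM after scaling by TMM, a method that corrects library sizes for composition.

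The 9 genes did not move together after Cnot1 silencing. Cdh2 and Zic2 rose, Otx2, Foxd3 and Utf1 fell, and Grhl2, Pou3f1 and Fgf15 were not called. Across all genes tested, 15% were called higher, 14.7% lower and 29.7% in either direction, against 2 higher and 3 lower of these 8. How many genes rose or fell depended on scaling: TMM gave 2719 higher and 2668 lower genes, and unscaled library totals 3999 and 1563. The 5 calls among the members were made under every one of the 12 alternative settings, although the adjusted p came as close to the threshold as 0.0448 for Otx2 and 0.0445 for Zic2 in edgeR. The median log2 fold change of the 8 genes was 0.03, beside 0.0084 for all genes tested, and its sign depended on which libraries were included (-0.065 without siCnot1 replicate 1 and -0.007 without siNT replicate 2). The 2 libraries of one group lay entirely above or below those of the other for 7 of the 8 genes, and the same held for 63.9% of all genes tested. At the threshold of the study's methods, an unadjusted p of at most 0.05 with at least a 2-fold change, 1 of the 8 was called, Cdh2, against 6.18% of all genes higher and 1.8% lower.

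**Figure D1:**
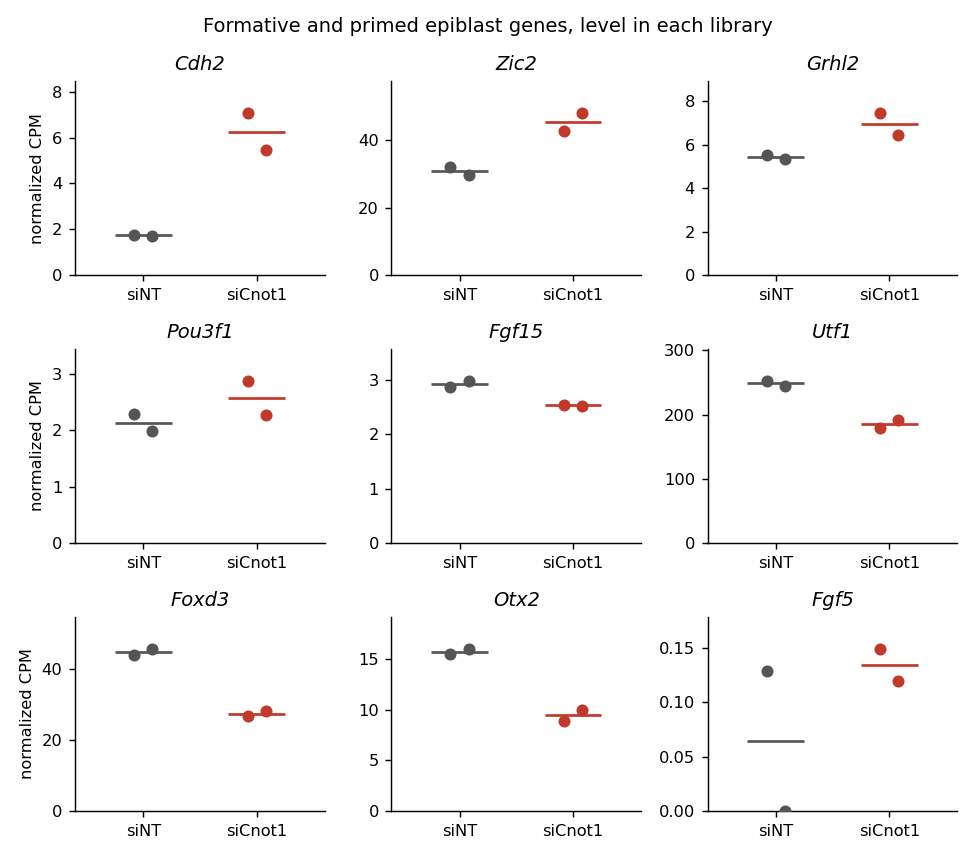
Level of each of the 9 genes in normalized CPM (after TMM scaling, linear axes from 0) in the 2 siNT and 2 siCnot1 libraries, 1 point per library with a bar at the group mean. Cdh2 and Zic2 lie higher and Utf1, Foxd3 and Otx2 lower in both siCnot1 libraries, and Fgf5 stays under 0.15 CPM in each library.

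**Figure D2:**
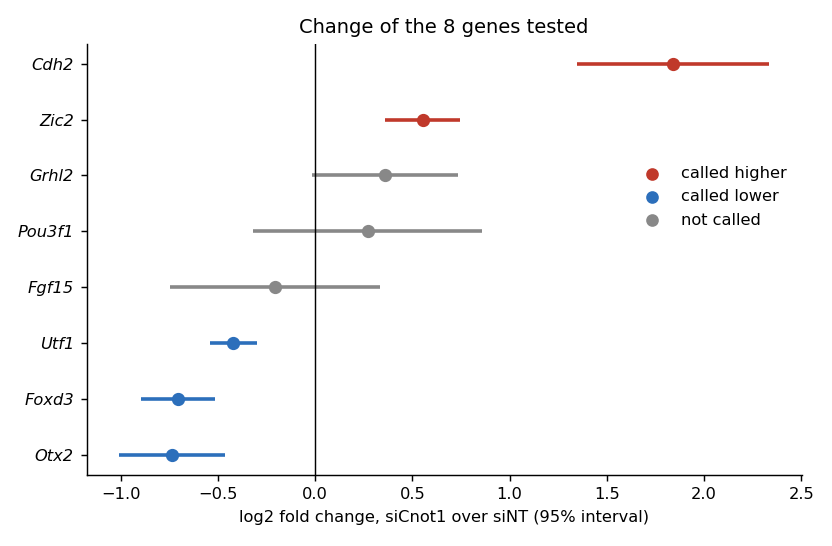
Log2 fold change of the 8 genes tested, siCnot1 over siNT, with 95% intervals from edgeR's quasi-likelihood fit. Cdh2 stands highest at 1.84, Otx2 lowest at -0.74, and the intervals of Grhl2, Pou3f1 and Fgf15 include 0.

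The 3 genes that fell encode regulators of transcription. RefSeq promoter windows, which run from 250 bases before to 50 bases after a start site in GRCm38.p6, are described for 4 of the 9 genes. No promoter is described here for the other genes, those that rose among them. The 4 included all 3 genes that fell. The windows of these 3 genes are shown because they moved in the same direction, for Otx2 the window with a match to the OTX motif, chosen after the search, with matches to the searched motifs in capitals. The positions are those of RefSeq and were not set against the deposited gene positions.
Foxd3 (chr4:99656049-99656348, plus strand): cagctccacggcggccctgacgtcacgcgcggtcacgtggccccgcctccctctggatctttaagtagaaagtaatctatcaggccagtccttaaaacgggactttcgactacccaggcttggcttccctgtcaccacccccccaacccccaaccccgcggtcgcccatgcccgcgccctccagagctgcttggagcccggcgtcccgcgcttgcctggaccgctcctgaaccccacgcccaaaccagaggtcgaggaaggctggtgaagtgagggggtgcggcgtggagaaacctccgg
Utf1 (chr7:139943606-139943905, plus strand): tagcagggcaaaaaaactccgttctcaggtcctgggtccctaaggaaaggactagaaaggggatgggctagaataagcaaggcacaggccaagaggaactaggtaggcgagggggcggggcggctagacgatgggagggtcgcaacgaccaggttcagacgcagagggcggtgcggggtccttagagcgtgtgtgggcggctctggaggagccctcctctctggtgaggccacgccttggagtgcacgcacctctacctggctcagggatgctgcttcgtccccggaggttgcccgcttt
Otx2 (chr14:48665060-48665359, minus strand, 1 of 4 start sites): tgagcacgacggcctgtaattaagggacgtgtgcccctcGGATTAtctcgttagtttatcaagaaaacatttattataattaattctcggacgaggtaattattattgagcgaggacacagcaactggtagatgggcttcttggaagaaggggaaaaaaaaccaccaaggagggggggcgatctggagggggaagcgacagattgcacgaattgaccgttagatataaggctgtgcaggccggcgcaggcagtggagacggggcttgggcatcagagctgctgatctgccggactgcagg
Both strands were searched for TATAAA (the TATA box), ATGCAAAT (the octamer bound by POU factors), TAATCC (bound by OTX-type homeodomains) and AACCGGTT (bound by grainyhead factors such as GRHL2), motifs that do not overlap one another here. The single match in the windows shown is a TAATCC, read on the opposite strand, that starts at -211 of the Otx2 window. This motif was present in 7.06% of 32851 promoter windows of the same length, TATAAA in 13.6%, the octamer in 1.74% and AACCGGTT in 0.146%. Foxd3 and Utf1 windows were rich in G and C (65.7% and 62.0%) with 25 and 17 CpG dinucleotides, beside medians of 52.7% and 7 over all windows. The Otx2 window shown had 51.0% G and C and 16 CpG. The other Otx2 windows had 11, 8 and 6 CpG and no TAATCC, and the one starting at 48667595 held a TATAAA at -192. The Fgf5 window, not shown, held a TATAAA at 35. With 68.3% G and C and 29 CpG it was richer than those of Foxd3 and Utf1, so this richness was not particular to genes that fell. These matches are descriptions of sequence, and no binding was measured.

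Otx2, a homeodomain factor that drives the exit from naive pluripotency and redirects POU5F1 to new enhancers, had 481 and 502 counts in siNT and 297 and 336 counts in siCnot1. Both siCnot1 libraries were below both controls. Its level fell from 15.7 ± 0.392 to 9.45 ± 0.831 CPM (SD, n = 2), with log2 fold change -0.74 (SE 0.132, adjusted p = 0.000162, edgeR). The gene lies on chromosome 14, 48894238 to 48905101, minus strand. This and all other gene positions here are those of the deposited table, which names no genome build. Its antisense neighbour Otx2os1 had 0 counts in both siNT libraries and 0 and 6 in siCnot1, and shares no exonic base with it.

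Foxd3, a forkhead factor that acts as a repressor and organiser of enhancers during the same transition and later specifies the neural crest, changed by nearly the same amount. It had 1364 and 1428 counts in siNT and 895 and 940 counts in siCnot1 (chromosome 4, 99544536 to 99546908, a single exon). Levels were 44.7 ± 1.21 and 27.4 ± 0.97 CPM (SD, n = 2), with log2 fold change -0.71 (SE 0.0919, adjusted p = 3.4e-06, edgeR).

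Utf1, which encodes a chromatin-associated protein abundant in pluripotent cells and is expressed in naive ESCs as well as in the epiblast, was by far the most abundant of the 9. Control libraries had 7845 and 7682 counts of it, and siCnot1 libraries 6007 and 6431 (chromosome 7, 139523769 to 139525025). The groups did not overlap, and the level dropped from 249 ± 5.01 to 186 ± 9.09 CPM (SD, n = 2), with log2 fold change -0.42 (SE 0.0582, adjusted p = 7.41e-06, edgeR). The tested genes were also divided into 4 bins of 4536 genes by mean level. In the highest bin, to which Utf1 belongs, 34.5% were called lower and 13.5% higher. In the bin below, which holds Otx2, Foxd3 and Zic2, the shares were 14.6% lower and 17.8% higher.

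Zic2, a zinc-finger factor that binds enhancers in ESCs and marks the formative transition, rose. It had 999 and 928 counts in siNT and 1429 and 1600 counts in siCnot1 (chromosome 14, 122712796 to 122717740, plus strand). All siCnot1 values exceeded the controls, at 45.2 ± 3.64 against 30.9 ± 1.77 CPM (SD, n = 2), with log2 fold change 0.55 (SE 0.0941, adjusted p = 9.36e-05, edgeR). Zic5, the neighbour of Zic2 in the genome, had 366 and 408 counts in siNT and 290 and 358 in siCnot1 and did not pass (log2 fold change -0.36, SE 0.145, adjusted p = 0.067, edgeR). A neighbouring gene on the other strand, 2610035F20Rik, had 68 to 111 counts in the 4 libraries and no exonic overlap.

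Grhl2, a grainyhead factor that opens enhancers of epithelial genes in the formative epiblast, had 171 and 167 counts in siNT and 249 and 216 counts in siCnot1 (chromosome 15, 37233065 to 37363813, plus strand). Both siCnot1 libraries were above both controls, but the difference did not pass the test. Levels were 5.41 ± 0.119 and 6.94 ± 0.692 CPM (SD, n = 2), with a log2 fold change of 0.36 (SE 0.181, 95% interval -0.015 to 0.733, adjusted p = 0.144, edgeR). Grhl2 shares 221 exonic bases with Gm16136 on the opposite strand, which had at most 4 counts in a library. Its relative Grhl3 had 1598 and 1588 counts in siNT and 1046 and 1280 in siCnot1 and fell by 0.55 on the log2 scale (SE 0.0958, adjusted p = 0.000109, edgeR), a call lost when either siNT library was left out. Grhl1 was at 179 to 191 counts in all 4 libraries (log2 fold change -0.14, adjusted p = 0.613, edgeR).

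Pou3f1 (OCT6), a POU factor that is switched on early in formative cells, was expressed at a low level, with 71 and 62 counts in siNT and 96 and 76 counts in siCnot1 (chromosome 4, 124551439 to 124554448, a single exon). After scaling the groups overlapped, at 2.28 and 1.98 CPM in siNT and 2.87 and 2.27 CPM in siCnot1. The log2 fold change was 0.27 with a 95% interval from -0.321 to 0.86 (adjusted p = 0.526, edgeR). Of its close relatives, Pou3f2 had 10 and 12 counts in siNT and 3 and 0 in siCnot1. The ratio of the summed counts was 0.137 (95% exact conditional interval 0.0262 to 0.456, counting error only), and its call in edgeR (adjusted p = 0.0424) was lost under 9 of the 12 alternatives. Pou3f2 passed the filter on low counts through siNT alone, the group where it was high, so its call is not taken as support. Pou3f3 had 22 and 25 counts in siNT and 61 and 26 in siCnot1 and was not called (adjusted p = 0.222, edgeR).

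Fgf5, a secreted growth factor and the defining marker of the primed epiblast, was barely detected. It had 4 and 0 counts in siNT and 5 and 4 counts in siCnot1 (chromosome 5, 98402043 to 98424892, plus strand), too few for the test. The ratio of the summed counts, 9 against 4, was 2.26 with a 95% exact conditional interval from 0.631 to 10, so a change in Fgf5 was not detectable at this depth. Without a filter on low counts its adjusted p in edgeR was 0.724.

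Fgf15, a ligand of the endocrine FGF group that signals through FGFR4 with the co-receptor KLB, was not called, with 89 and 93 counts in siNT and 85 and 84 counts in siCnot1 (chromosome 7, 144450269 to 144454690, plus strand). The siCnot1 values lay just below the controls at 2.52 ± 0.0193 against 2.91 ± 0.0751 CPM (SD, n = 2), without passing the test (log2 fold change -0.21, SE 0.262, 95% interval -0.748 to 0.334, adjusted p = 0.605, edgeR). Gm26793, on the opposite strand, shares 518 exonic bases with Fgf15 and had 1 to 21 counts per library, and whether counting used the strand is not given in the sources used here.

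Of 7 genes for FGF receptors and co-receptors, 6 were tested and 4 were called higher, a count that dropped to between 1 and 2 with 1 library left out. None was called lower in edgeR, DESeq2 or limma-voom (1 at an unadjusted p under 0.05). Fgfr4 had 103 and 91 counts in siNT and 304 and 322 counts in siCnot1, a log2 fold change of 1.59 (SE 0.187, adjusted p = 8.95e-07, edgeR), and it was called under each alternative. Klb rose from 73 and 56 to 129 and 132 counts (log2 fold change 0.91, SE 0.261, adjusted p = 0.00986, edgeR), a call lost without the filter on low counts and whenever a library was left out. Fgfr1, the main FGF receptor of the epiblast, changed less, from 3688 and 3855 to 4676 and 4561 counts (log2 fold change 0.19, adjusted p = 0.0191, edgeR), and was lost under the same settings. Fgfrl1, a receptor that lacks the kinase domain, was higher with a log2 fold change of 0.82 (adjusted p = 0.000894, edgeR), a call lost without siNT replicate 2. Among FGF ligands related to Fgf5 and Fgf15, Fgf4, the FGF that ESCs secrete, rose by 0.33 on the log2 scale (4949 and 4715 to 6554 and 6502 counts, adjusted p = 0.00013, edgeR). Fgf17 fell by 0.55 (779 and 708 to 481 and 609 counts, adjusted p = 0.0012, edgeR), a call lost without the filter on low counts and when any library but siCnot1 replicate 2 was left out.

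Cdh2, N-cadherin, had the largest change of the 9. It had 55 and 54 counts in siNT and 236 and 183 counts in siCnot1 (chromosome 18, 16721934 to 16942303, minus strand). The groups were well apart, at 1.75 ± 0.0319 and 6.26 ± 1.11 CPM (SD, n = 2), a 3.58-fold rise (log2 fold change 1.84, SE 0.239, adjusted p = 3.3e-06, edgeR). Leaving out each library in turn gave log2 fold changes from 1.64 to 2.00. In its bin of 4536 tested genes by mean level, 19.6% were called higher and 7.36% lower.

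Cdh1, E-cadherin, moved the other way, from 21154 and 21982 counts in siNT to 18241 and 17597 in siCnot1 (log2 fold change -0.37, SE 0.0534, adjusted p = 1.36e-05, edgeR). Per kilobase of exon, Cdh2 was 0.116% and 0.109% of Cdh1 in the siNT libraries and 0.575% and 0.463% in the siCnot1 libraries. The log2 ratio differed by 2.198 between the group means, a value that does not depend on scaling. With 2 libraries per group no exact permutation test can pass the threshold, and none was run. Cdh1 thus remained far above Cdh2 in all 4 libraries. Cdh3, P-cadherin, had 305 and 331 counts in siNT and 433 and 400 in siCnot1 and was not called (log2 fold change 0.29, adjusted p = 0.117, edgeR).

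**Figure D3:**
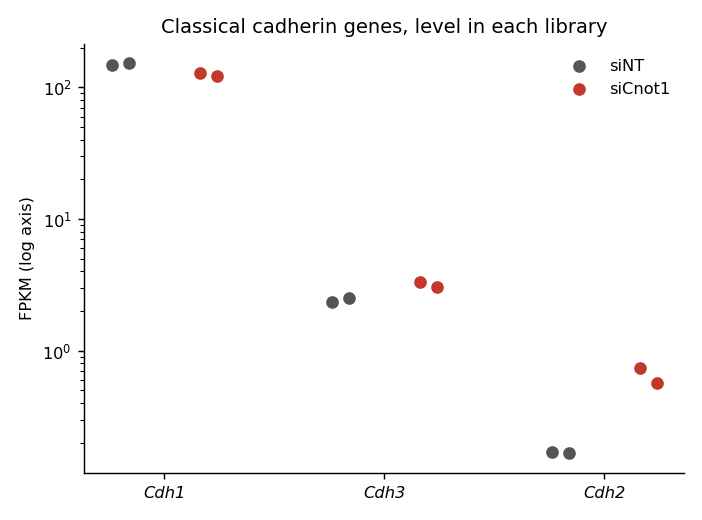
FPKM (CPM per kilobase of exon, log axis) of the E-, P- and N-cadherin genes Cdh1, Cdh3 and Cdh2 in each library, grey for siNT and red for siCnot1. Cdh2 rises from 0.169 to 0.652 on average and Cdh1 drops from 150 to 125, with Cdh1 well above Cdh2 in every library.

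The genes around this cadherin pair showed mixed changes. Of 11 epithelial adhesion genes tested, 2 were higher and 4 lower, of which 1 in each direction was called under every alternative. Ocln, a tight-junction protein, rose (212 and 217 to 432 and 453 counts, log2 fold change 0.94, adjusted p = 2.51e-05, edgeR). Cldn7, a claudin, fell (73 and 79 to 22 and 31 counts, log2 fold change -1.62, adjusted p = 0.00137, edgeR), a call lost when either siNT library was left out. Of 8 genes linked to mesenchymal transition, 7 were tested, 3 were higher and none was lower (also 0 in DESeq2 and limma-voom, and 0 at an unadjusted p under 0.05). Zeb2, a repressor of Cdh1, had 61 and 51 counts in siNT and 120 and 142 in siCnot1 (log2 fold change 1.12, SE 0.267, adjusted p = 0.00245, edgeR). Twist1 had 143 and 147 against 265 and 288 counts (log2 fold change 0.83, SE 0.178, adjusted p = 0.000963, edgeR). Both calls were lost without siNT replicate 1, when 0 genes of this list were called, and that of Zeb2 also without siNT replicate 2 or siCnot1 replicate 2. Of the cadherin-catenin genes, 3 of 4 tested were lower, among them Ctnnb1, beta-catenin (log2 fold change -0.23, adjusted p = 0.0015, edgeR). None of these 3 calls was made under every alternative, library totals removed all of them, and 0 to 2 genes of this list were called lower with 1 library left out. Snai1 and Snai2, at 34 to 63 counts in all libraries, were not called.

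Levels between the 9 genes were compared as FPKM, that is CPM without TMM scaling per kilobase of exon. In siNT the order was Utf1 (206 ± 4.18), Foxd3 (18.1 ± 0.489), Zic2 (10 ± 0.576), Otx2 (2.67 ± 0.0662), Fgf15 (1.55 ± 0.0398), Grhl2 (0.872 ± 0.0193), Pou3f1 (0.681 ± 0.0689), Cdh2 (0.169 ± 0.0031) and Fgf5 (0.0247 ± 0.035), all as FPKM with SD and n = 2. The library values of neighbours in this order did not overlap. In siCnot1 the order was the same except that Zic2 (15.8 ± 1.15) passed Foxd3 (12.0 ± 0.333), and again no neighbours overlapped. The FPKM of Zic2 was 0.584 and 0.519 of that of Foxd3 in the siNT libraries and 1.28 and 1.36 in the siCnot1 libraries, a ratio within libraries that scaling does not affect. In siCnot1, Cdh2 stood at 0.652 ± 0.121 FPKM, next below Pou3f1 at 0.885 ± 0.152 FPKM. FPKM rests on the exon length listed for all transcripts of a gene together.

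The other 17 formative and primed epiblast genes examined were likewise split, with 5 called higher and 8 lower and a median log2 fold change of -0.16. Sox3 and Sall2 showed the largest rises from low control levels. Sox3, an early neuroectoderm and epiblast factor, had 74 and 68 counts in siNT and 227 and 254 in siCnot1 (log2 fold change 1.66, SE 0.213, adjusted p = 2.85e-06, edgeR). Sall2 had 107 and 91 against 258 and 300 counts (log2 fold change 1.39, adjusted p = 9e-06, edgeR). Both were called under each alternative. The larger falls were those of Etv1 (log2 fold change -0.68, adjusted p = 1.13e-05, edgeR) and Etv4 (-0.46, adjusted p = 8.74e-06, edgeR), ETS factors downstream of FGF signalling, and both held under each alternative, while Etv5 was not called (-0.09, adjusted p = 0.252, edgeR). The de novo DNA methyltransferase genes fell slightly, Dnmt3b by 0.31 (2605 and 2871 to 2375 and 2357 counts, adjusted p = 0.00159, edgeR) and Dnmt3a by 0.22 (adjusted p = 0.00562, edgeR), on the log2 scale. The call of Dnmt3a was lost when any library was left out or library totals were used, that of Dnmt3b without siNT replicate 2 or siCnot1 replicate 2. Lef1, a Wnt effector, varied from 25 to 68 counts between the siNT libraries and was not called. Of the 8 lower genes, 3 were called under every alternative, and of the 5 higher genes, 4 were. With 1 library left out, 3 to 4 genes of this list were called lower.

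**Figure D4:**
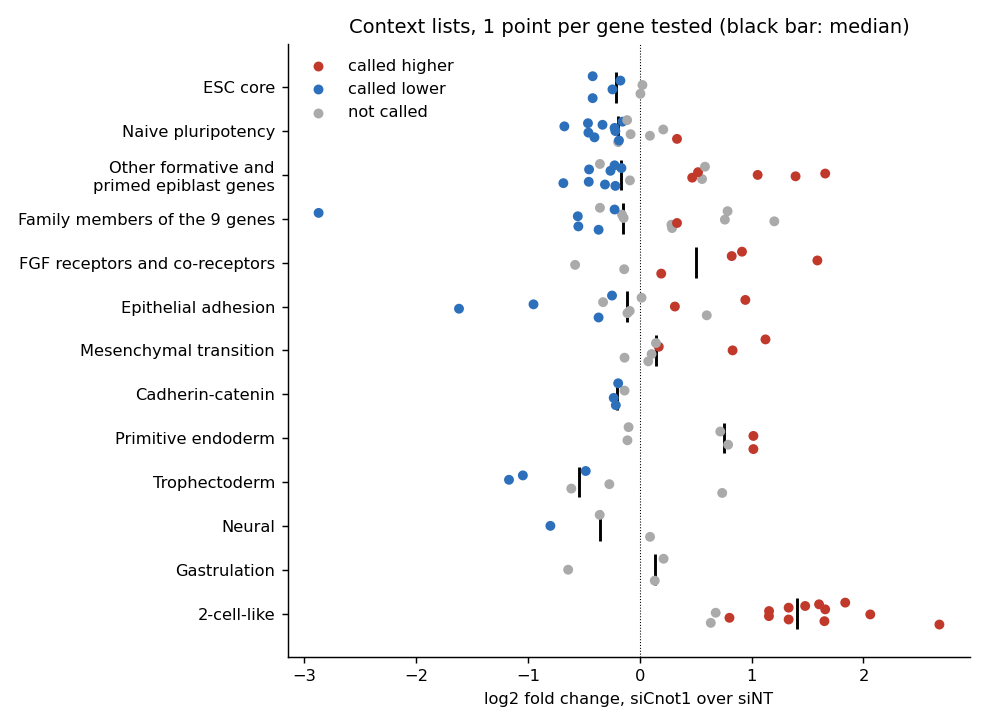
Log2 fold change (siCnot1 over siNT) of each tested gene in 13 lists of related genes and cell type markers, coloured by the edgeR call, with a black bar at the list median. The other formative and primed genes spread from -0.68 to 1.66, the naive and core genes lie mostly just below 0, and the 2-cell-like genes lie above 0.

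Core pluripotency genes were abundant in all libraries, with Pou5f1 at 29399 to 34621 counts, and 4 of the 6 examined, Utf1 among them, were called lower, 2 of them under every alternative. Of 15 naive genes, 1 was higher, Fgf4, and 9 were lower. The lower count was 4 to 7 with 1 library left out and 5 with library totals, and 4 genes were called lower under every alternative. Most of these genes are in the highest of the 4 level bins, where 34.5% of all genes were called lower. The median of the naive list was -0.19 on the log2 scale. The lowest of those called were Prdm14, which protects the naive state (1734 and 1720 to 1146 and 1175 counts, log2 fold change -0.67, adjusted p = 2.13e-06, edgeR), and Tcl1 (-0.46, adjusted p = 5.08e-05, edgeR). Nanog (-0.22, adjusted p = 0.00297, edgeR) and Esrrb (-0.19, adjusted p = 0.0102, edgeR) fell slightly, calls lost with library totals in place of TMM and when any library but siCnot1 replicate 2 was left out, and Klf4 was not called (-0.08, adjusted p = 0.328, edgeR). Pou5f1 had a log2 fold change of -0.24 (adjusted p = 0.00174, edgeR), a call lost without siNT replicate 1 or without siCnot1 replicate 1. Sox2 had one of -0.17 (adjusted p = 0.0273, edgeR), a call lost under 7 of the 12 alternatives. Among genes of gastrulation, T, the gene of nascent mesoderm, had 0 counts in all 4 libraries, whereas Eomes, a T-box factor of the primitive streak that also acts in trophoblast, had 559 and 561 counts in siNT and 728 and 590 in siCnot1 and was not called (log2 fold change 0.13, adjusted p = 0.431, edgeR).

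Markers of other cell types were followed because RNA from bulk cultures averages over cells, and more cells of a type cannot be told apart from more RNA per cell. The 2-cell-like list rose, with 12 of 14 tested genes higher, 9 of them under every alternative. Its summed level was 102 CPM in each siNT library against 270 and 282 CPM in siCnot1. However, this list holds near-identical paralogs whose counts are uncertain. A gene among the 12 had 1 and 2 counts in siNT and 11 and 11 in siCnot1. It passed the filter on low counts through siCnot1 alone, so its call is not taken as support. In the primitive endoderm list, 2 of 6 genes were higher, Dab2 and Pdgfra (the latter not without siNT replicate 1). The sum of this list went from 14.8 and 12.6 CPM to 22.9 and 22.1 CPM. Gata4, at 48 and 36 counts in siNT and 78 and 78 in siCnot1, was not called (log2 fold change 0.79, adjusted p = 0.0694, edgeR). Gata6, Sox17 and Sox7 were not called either. The trophectoderm sum went from 79.5 and 82.5 CPM to 54.6 and 52.9 CPM with 3 of 6 tested genes lower. Most of this sum was Tfap2c, which is also active in germ cells and ESCs, at 57.9 and 58.6 CPM in siNT and 42.5 and 40.9 CPM in siCnot1. The others lower were Krt8 (log2 fold change -1.05, adjusted p = 9.91e-06, edgeR) and Krt18 (-1.17, adjusted p = 0.00177, edgeR). The call of Krt18 was lost without the filter on low counts and when any library but siCnot1 replicate 1 was left out. Cdx2 was at 4 to 20 counts. Neural markers summed to 28.5 to 31.8 CPM and gastrulation markers to 19.8 to 23.7 CPM over the 4 libraries, of which Eomes made up 17.6 to 21.7 CPM, with Hes5 at 0 counts throughout. Of 3 neural genes tested, Pax6 was called lower, a call lost without the filter on low counts and whenever a library was left out, and of 3 gastrulation genes tested 0 were called in edgeR, DESeq2 or limma-voom and 0 at an unadjusted p under 0.05. Fibroblast markers summed to 8.94 to 13.3 CPM, with Col3a1 at 0 counts in all libraries and Col1a1 called higher (39 and 48 to 116 and 131 counts, adjusted p = 0.000541, edgeR), a call lost without siNT replicate 1. The part of these lists in the change of Cdh2, Zic2 or the 3 lower genes was not tested.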

How the data were processed

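Poly(A)+ RNA was sequenced from mouse ESCs, with 2 siNT and 2 siCnot1 libraries. The authors deposited raw counts per gene, without normalization or pooling, together with exon lengths. The submitters' processing notes name fastp 0.19.4, HISAT2 2.2.1, DESeq2 1.40.2 and mm10, with no counting program or strand setting. However, only 2 of the 9 deposited gene spans overlap their RefSeq spans in GRCm38.p6, so positions and promoter windows were kept apart. The study's methods name a stranded library kit for another assay and no kit for RNA-seq libraries such as these.

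Counts were filtered with edgeR 4.0.16 (filterByExpr, minimum count 10), scaled by TMM and compared by the quasi-likelihood test (R 4.3.3) in a model of condition alone. SE was obtained from the F statistic as log2 fold change over root F. FPKM used total counts on genes. P-values weigh a change against the spread between libraries of a group. With 2 libraries per group, the fit estimates this spread for each gene by sharing information over all genes tested. Library totals lay between 32135824 and 32557440 counts.

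All 9 genes, Cnot1, their family members and, per list, the largest called changes in each direction were named, except for a result that is not reported here, with further genes fixed by name (Dnmt3a, Dnmt3b, Lef1, Sox3, Etv4, Etv5, Nanog, Esrrb, Klf4, Pou5f1, Sox2, Fgfr1, Fgfr4 and Klb among them). Other genes named, among them neighbouring transcripts, Fgfrl1, Snai1, Snai2, Ctnnb1 and single markers, were chosen after their values were seen. The members and lists were chosen with earlier results of these data known. Alternatives were 3 other scalings, 2 other filters, DESeq2 1.42.0, limma-voom (limma 3.58.1), the replicate number as a block, and leaving out each library.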

Additional observations from a re-analysis of the deposited data

How the results depend on the processing

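The 2 higher and 3 lower calls among the 9 genes were made under all 12 alternatives, and Grhl2, Pou3f1 and Fgf15 were called under none. The median log2 fold change of the members moved from 0.031 to 0.263 without a filter on low counts, where Fgf5 entered, and ranged from -0.065 to 0.108 with each library left out. Over all genes, no filter gave 1303 higher and 1450 lower, library totals in place of TMM gave 1563 lower and shifted the median log2 fold change of all genes to 0.116, and leaving out a library gave 743 to 1439 higher and 871 to 1463 lower. Of 131 genes in the context lists, 111 were tested, of which 30 were higher and 35 lower, beside 15% and 14.7% of all genes tested. The lower count was 21 with library totals and 21 without a filter, and leaving out a library gave 19 to 25 higher and 13 to 23 lower. Of these 65 calls, 29 were made under every alternative. Fits without 1 library assume that the lone library varies like the other group. Why these counts and medians differed between settings was not tested.

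A fit with a replicate block called 2524 genes higher and 2431 lower, and 2 and 3 members. Same-numbered libraries hardly deviated together (correlation 0.011 over genes). Whether they were handled together is not given in the labels, and this correlation cannot settle it. The log2 ratio of Cdh2 to Cdh1 rose by 2.04 to 2.36 with each library left out. Depth limits Fgf5, at 0 to 5 counts per library.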
